A study of Homo sapiens with 12 samples.

Results

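MHC class I antigen presentation was followed through 9 genes in GCTM-5 positive and negative pancreatic adenocarcinoma cells. They are *HLA-B*, *HLA-C*, *HLA-E*, *HLA-F*, *B2M*, *TAP1*, *TAP2*, *PSMB8* and *PSMB9*, taken by gene symbol from the deposited expression table, which lists 23346 genes. Each of the 9 was found on 1 row, and all 9 were abundant enough to enter the tests. The values are RPKM, reads for each kilobase of gene length, scaled to the size of the library, so that levels can be set side by side between genes as well as between samples.

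The RNA came from SW1990 and CFPAC-1, established human lines of pancreatic adenocarcinoma grown as monolayers. Cells of each line were stained with GCTM-5, an antibody to a secreted glycoprotein complex that carries the CA 19-9 epitope, and sorted by flow cytometry. Each line thus gave a GCTM-5 positive group, from a gate on strongly stained cells, and a GCTM-5 negative group, from a gate on unstained cells, and cells of intermediate staining entered neither group. There were 3 samples in each of the 4 groups and 12 in all, and no group received a drug or cytokine according to the labels. Each line comes from 1 patient, so that a difference between the lines cannot be told apart from a difference between donors. The samples of a group came from triplicate sorts of 1 line, and the p-values measure the spread between these samples, which may be technical.

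MHC class I molecules display peptides from proteins made inside the cell to cytotoxic T cells and natural killer cells. Peptides are cut by the proteasome, whose catalytic subunits are partly replaced by the immunoproteasome subunits *PSMB8* and *PSMB9* under interferon. The transporter formed by *TAP1* and *TAP2* carries the peptides into the endoplasmic reticulum, where a heavy chain such as *HLA-B*, *HLA-C*, *HLA-E* or *HLA-F* is loaded together with the light chain *B2M*. Interferon acts on many of these genes through the IRF factors, and *NLRC5* is a transactivator of the class I promoters.

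Of the 9 genes, 8 lie on chromosome 6 in the annotation mapped to GRCh37, among them *HLA-E* at 30457286 to 30461971, *HLA-B* at 31321649 to 31334844 and *TAP2* at 32789610 to 32806516. *PSMB8*, *TAP1* and *PSMB9* are neighbours there, and the span of *PSMB9*, 32811913 to 32827628 on the plus strand, runs over *TAP1* and the start of *PSMB8* on the minus strand. By the RefSeq gene starts used below, *PSMB9* starts at a higher position than *TAP1* and does not run over it. Whether the counting used the strand, and which span of *PSMB9* it used, is not given in the sources used here. Reads of these 3 genes may therefore not be fully told apart. *B2M* lies alone on chromosome 15 at 45003556 to 45011049. *HLA-B* and *HLA-C* are close paralogs and highly polymorphic, and the alleles of the lines were not used in counting as far as the sources say, so levels of the heavy chains may hold reads that were shared or lost.

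The upstream sequences below are shown because the heavy chains, *B2M* and *TAP1* varied together from sample to sample while *TAP2* did not rise and fall with them. Each is the 250 bases before a RefSeq gene start in GRCh38.p14, written along the gene's own strand, with capitals marking every match on either strand to the 4 motifs searched. These were the IRF core AANNGAAA, the GAS element TTCNNNGAA, the CCAAT box CCAAT and a kappaB-like motif GGGANTNCC. The windows are chr6:31357180-31357429 for *HLA-B*, chr6:31272093-31272342 for *HLA-C*, chr15:44711267-44711516 for *B2M*, chr6:32853705-32853954 for *TAP1* and chr6:32838740-32838989 for *TAP2*, all on the minus strand except *B2M*.
*HLA-B*: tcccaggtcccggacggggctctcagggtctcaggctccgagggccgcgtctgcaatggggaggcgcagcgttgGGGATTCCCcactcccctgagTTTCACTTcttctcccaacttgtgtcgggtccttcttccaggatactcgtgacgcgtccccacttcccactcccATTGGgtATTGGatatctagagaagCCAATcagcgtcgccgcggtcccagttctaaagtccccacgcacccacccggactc
*HLA-C*: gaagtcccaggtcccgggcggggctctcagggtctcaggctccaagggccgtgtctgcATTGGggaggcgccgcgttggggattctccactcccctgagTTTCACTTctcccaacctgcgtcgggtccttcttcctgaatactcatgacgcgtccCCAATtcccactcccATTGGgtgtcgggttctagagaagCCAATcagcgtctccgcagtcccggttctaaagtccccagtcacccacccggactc
*B2M*: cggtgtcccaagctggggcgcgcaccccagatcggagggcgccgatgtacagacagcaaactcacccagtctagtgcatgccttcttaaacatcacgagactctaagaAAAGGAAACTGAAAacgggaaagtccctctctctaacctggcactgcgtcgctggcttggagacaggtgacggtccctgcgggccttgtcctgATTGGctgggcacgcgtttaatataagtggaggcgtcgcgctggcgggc
*TAP1*: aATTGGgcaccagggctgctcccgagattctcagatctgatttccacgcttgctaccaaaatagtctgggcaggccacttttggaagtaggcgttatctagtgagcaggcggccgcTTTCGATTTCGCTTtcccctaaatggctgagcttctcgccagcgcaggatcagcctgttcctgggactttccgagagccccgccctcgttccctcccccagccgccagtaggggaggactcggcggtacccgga
*TAP2*: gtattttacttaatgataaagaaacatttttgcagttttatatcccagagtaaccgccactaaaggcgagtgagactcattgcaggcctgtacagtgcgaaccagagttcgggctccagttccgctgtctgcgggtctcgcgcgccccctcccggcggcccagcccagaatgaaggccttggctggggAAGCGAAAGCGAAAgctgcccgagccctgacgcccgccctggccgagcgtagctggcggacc

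RefSeq gave 10 windows for 8 of the members, with 2 each for *TAP1* and *PSMB8*, and shares below count single windows. The IRF core was found in 6 of the 10 windows, each of another member, against 20.3% of 35116 windows of the same length. In *HLA-B* and *HLA-C* it reads TTTCACTT on the printed strand, while *B2M*, *TAP1* and *TAP2* each hold overlapping copies. The CCAAT box was also found in 6 of 10, against 32.0% of windows, with 3 copies in *HLA-B* and none in *TAP2*. The GAS element was found in 2 of 10, a window of *PSMB8* and another window of *TAP1*, against 6.6% of windows, and the kappaB-like motif in 2 of 10, in *HLA-B* and *PSMB8*, against 3.8%. A match describes the letters of the window and is not a measured binding site.

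Replicates 3 and 1 of positive CFPAC-1 cells had the smallest and the largest library total, 9969697 and 26159330 reads, as recovered from the RPKM values. The lowest read numbers behind a member were 127 reads of *PSMB9* and 655 reads of *HLA-F*, both in positive CFPAC-1 replicate 3, and the highest were 79017 reads of *B2M*. Of 6 markers of epithelial duct-like cells, all were detected in every group, and their summed level was 1595 to 1942 RPKM in negative and 4360 to 4841 RPKM in positive SW1990 cells. In CFPAC-1 the same sum was 5411 to 6173 RPKM in negative and 6676 to 8162 RPKM in positive cells. The markers did not move together there, with log2 fold changes of 0.86 for *KRT7*, 0.70 for *KRT8* and *KRT18* and 0.31 for *CDH1*. For *EPCAM* and *KRT19* they were -0.08 and -0.14. In SW1990 they ran from 0.15 for *KRT7* to 3.04 for *EPCAM* and *CDH1*. Of 7 leukocyte markers, *MS4A1* was at 0 in all samples, *PTPRC*, *CD3E* and *ITGAM* were below the detection filter, and *CD14*, *CD68* and *LYZ* were measured. The summed level of the list was 35.6 to 49.9 RPKM in negative and 16.2 to 34.8 RPKM in positive SW1990 cells, and 179 to 209.6 RPKM and 163 to 228 RPKM in CFPAC-1. *CD14* fell in positive cells of both lines, by 1.97 on the log2 scale in SW1990 and 1.54 in CFPAC-1, and *CD68* fell by 1.02 in SW1990. The sums of 3 endothelial and 5 fibroblast markers were at most 18.8 and 5.92 RPKM in any sample, with *CDH5*, *COL1A1* and *PDGFRB* lower in positive SW1990 cells. The part of these cell markers in the member results was not tested.

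*B2M* was the most abundant member in every group, with a mean of 2390.2 ± 375 RPKM in the negative SW1990 group and of 1849.6 ± 422 RPKM in the positive one (SD, n = 3 in each group here and below). The CFPAC-1 means were 3351 ± 337 RPKM without and 1916 ± 506 RPKM with the antigen. Among the heavy chains *HLA-B* led in SW1990, at 1742 ± 399 RPKM in negative cells, whereas *HLA-E* led in negative CFPAC-1 cells, at 465 ± 33.2 RPKM against 342 ± 25.9 RPKM of *HLA-B*. *PSMB9* was the least abundant member in every group, with group means between 11.6 and 16.8 RPKM. The plot of RPKM by sample shows these levels for all 9 genes.

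**Figure D1:**
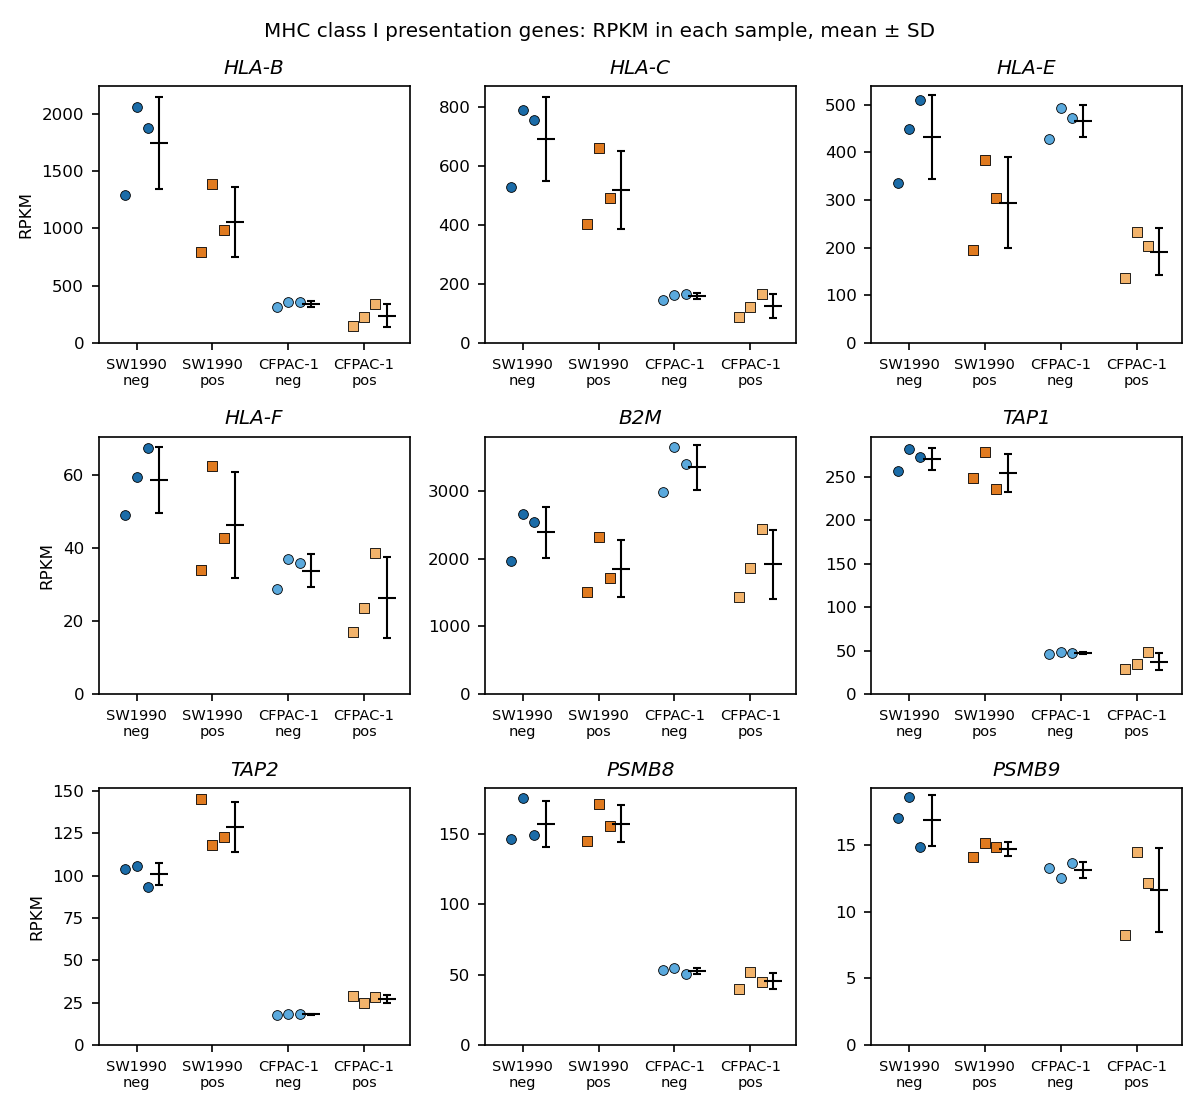
RPKM (linear axes that start at 0) of each of the 9 genes in the 12 samples, grouped by line and by GCTM-5 negative (neg) or positive (pos) sort, with the mean and SD of each group of 3 beside its points. *HLA-B*, *HLA-C*, *TAP1*, *TAP2* and *PSMB8* sit higher in all SW1990 than in all CFPAC-1 samples, and *TAP2* lies higher in positive than in negative samples of both lines.

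The first question was how the antigen presentation genes differ between positive and negative cells of SW1990. *TAP2*, a subunit of the peptide transporter, rose in the positive cells, and it was the 1 member of 9 called, against 11.3% of all 16236 genes tested called higher. Its levels were 104, 106 and 93.3 RPKM in the negative and 145, 118 and 123 RPKM in the positive samples. All positive samples of *TAP2* were above all negative ones, which held for 17.9% of genes tested, and no member had all positive samples below, which held for 25.4%. The log2 fold change was 0.35 with a standard error of 0.10, and limma's adjusted p was 0.0183. Without negative SW1990 replicate 3 it was 0.29 with an adjusted p of 0.0776, and without positive SW1990 replicate 1 it was 0.26 with an adjusted p of 0.0746.

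No member was called lower in positive SW1990 cells by limma, against 16.9% of genes tested, and 2 members, *HLA-B* and *HLA-E*, had an unadjusted p under 0.05. *HLA-B*, a classical heavy chain, measured 1293, 2055 and 1878 RPKM in the negative samples and 790.5, 1388 and 982 RPKM in the positive samples. Positive replicate 2 lay above negative replicate 1, so that the groups overlapped. The log2 fold change of *HLA-B* was -0.74 with a 95% interval of -1.36 to -0.11, and the adjusted p was 0.0752. *HLA-E*, a non-classical heavy chain recognised by natural killer cell receptors, measured 336, 449 and 509.9 RPKM in negative and 195, 384 and 304 RPKM in positive samples. Again only positive replicate 2 reached into the range of the negative samples, and the log2 fold change was -0.59 with an interval of -1.13 to -0.04 and an adjusted p of 0.106.

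The *HLA-B* call in SW1990 was sensitive to single libraries. Without negative SW1990 replicate 1 the log2 fold change was -0.94 with an adjusted p of 0.0452, and without positive SW1990 replicate 2 it was -0.96 with an adjusted p of 0.0381. Without positive CFPAC-1 replicate 1 or replicate 3, which enter the shared estimate of the spread, the same log2 fold change of -0.74 had an adjusted p of 0.0375 or 0.0353. *HLA-E* was likewise called without positive SW1990 replicate 2, at a log2 fold change of -0.81 and an adjusted p of 0.0385. With voom on the recovered reads *HLA-B* was called lower, at an adjusted p of 0.0359, and *HLA-E* was not.

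The remaining members gave smaller differences in SW1990. *B2M*, the light chain shared by the class I molecules, measured 1962, 2664 and 2544 RPKM in negative and 1515, 2323 and 1711 RPKM in positive cells. The groups overlapped, with a log2 fold change of -0.38 and an interval of -0.86 to 0.10. *HLA-C* and *HLA-F*, a further classical and a further non-classical heavy chain, had log2 fold changes of -0.42 (interval -0.94 to 0.10) and -0.37 (interval -0.98 to 0.23). *TAP1*, the partner subunit of *TAP2*, averaged 270.1 ± 12.5 RPKM in the negative group against 254 ± 21.6 RPKM in the positive group, with a log2 fold change of -0.09 and an interval of -0.41 to 0.23. *PSMB8* had the same mean of 157 RPKM in both groups, and the interval of its log2 fold change ran from -0.23 to 0.24. For *PSMB9* the log2 fold change was -0.19 with an interval of -0.55 to 0.18. The median log2 fold change of the 9 members was -0.37, beside -0.04 over all genes tested.

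In CFPAC-1 the sort gave 3 called members. *HLA-E* and *B2M* fell and *TAP2* rose in the positive cells, so that 2 of 9 members were called lower and 1 of 9 higher, against 14.2% and 22.3% of genes tested. Of all calls in CFPAC-1, 61.1% were in the higher direction, and this share was 47.8% when each sample was centred on its median. In bulk RNA, fewer cells that express a gene and less RNA of it per cell cannot be told apart, in this comparison or in the others.

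*HLA-E* had 429, 494 and 472 RPKM in the negative CFPAC-1 samples. In the positive samples it had 137, 233 and 204 RPKM. Every positive sample was below every negative one, which held for 20.4% of genes tested. The log2 fold change was -1.31 with a standard error of 0.25 and an adjusted p of 0.0020, and *HLA-E* was the 1 member that changed over 2-fold with an unadjusted p under 0.01.

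*B2M* stood at 2993, 3661 and 3399.8 RPKM in the negative and 1438, 1863 and 2447 RPKM in the positive CFPAC-1 samples. All positive samples were lower than all negative ones, with positive replicate 3 the nearest. The log2 fold change was -0.84 with a standard error of 0.22 and an adjusted p of 0.0117. With CFPAC-1 fitted alone the same change had an adjusted p of 0.0609.

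*TAP2* was at 17.7, 18.2 and 18.4 RPKM in the negative and 28.9, 24.6 and 28.5 RPKM in the positive CFPAC-1 samples. Here too the groups were separate, with all positive samples above, as for 28.1% of genes tested. The log2 fold change was 0.59 with a standard error of 0.10 and an adjusted p of 0.0008. *TAP1* was at 46.0, 48.5 and 46.7 RPKM in the negative and 28.8, 35.0 and 47.8 RPKM in the positive samples. Positive replicates 1 and 2 of *TAP1* were below the negative samples and replicate 3 was among them, with a log2 fold change of -0.37, an interval of -0.69 to -0.05 and an adjusted p of 0.0658. *TAP1* was called lower with voom (adjusted p = 0.0367), after centring on the sample median (adjusted p = 0.0344) and with quantile normalization (adjusted p = 0.0157). The plot of fold changes places the subunits of the transporter on opposite sides of 0 in both lines, with the interval of *TAP1* in SW1990 crossing 0.

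**Figure D2:**
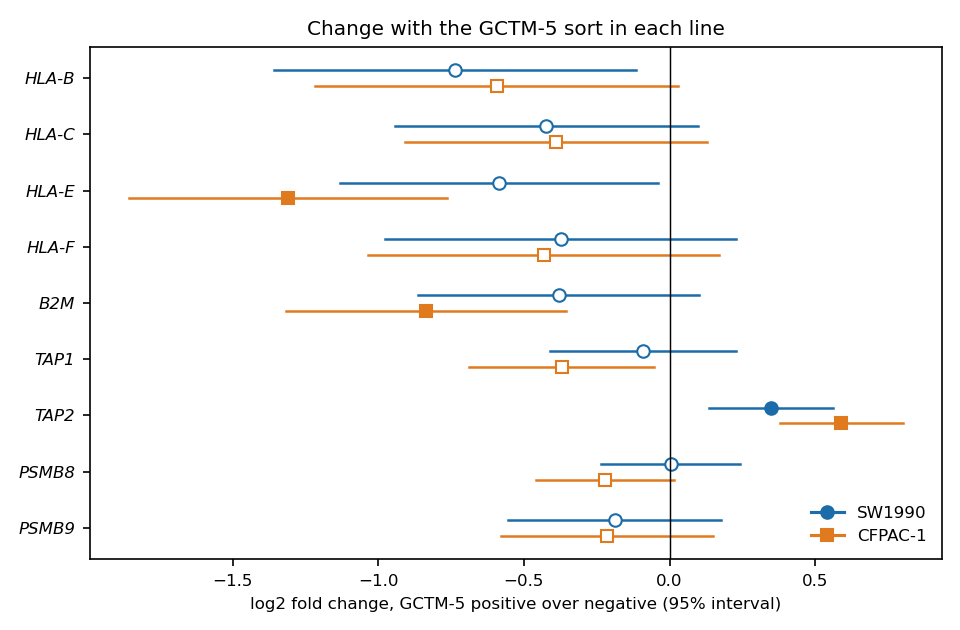
Log2 fold change of each gene, GCTM-5 positive over negative cells, in SW1990 (circles) and CFPAC-1 (squares), with 95% intervals as lines and filled symbols for an adjusted p under 0.05. *TAP2* is filled to the right of 0 in both lines, at 0.35 and 0.59, and *HLA-E* and *B2M* are filled to the left of 0 in CFPAC-1, at -1.31 and -0.84.

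*HLA-B*, *HLA-C* and *HLA-F* had a like arrangement of samples in CFPAC-1. *HLA-B* measured 312, 354 and 359.9 RPKM in negative and 149, 226 and 343 RPKM in positive samples. *HLA-C* measured 148, 164 and 165 RPKM in negative and 86.8, 123 and 166 RPKM in positive samples, and *HLA-F* 28.7, 36.9 and 35.9 RPKM against 17.0, 23.5 and 38.7 RPKM. In each of these genes positive replicates 1 and 2 were below all negative samples while positive replicate 3, the library with the fewest reads, was within or above their range. The log2 fold changes were -0.59 for *HLA-B*, with an interval of -1.22 to 0.03, -0.39 for *HLA-C*, with an interval of -0.91 to 0.13, and -0.43 for *HLA-F*, with an interval of -1.04 to 0.17. Without positive CFPAC-1 replicate 3 the log2 fold changes were -0.89 for *HLA-B* (adjusted p = 0.0229), -0.75 for *HLA-F* (adjusted p = 0.0328) and -0.57 for *TAP1* (adjusted p = 0.0016), and *HLA-E* and *B2M* stayed called lower. The share of all genes called lower without that library is not given here, so these calls are not set against it. The part of read depth in the position of that library was not tested.

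*PSMB8* was at 53.6, 54.5 and 50.4 RPKM in negative and 39.9, 51.6 and 44.9 RPKM in positive CFPAC-1 samples. Positive replicate 2 lay among the negative samples, and the log2 fold change was -0.22 with an interval of -0.46 to 0.02. Without that replicate it was -0.32 with an adjusted p of 0.0435. *PSMB9* was at 13.3, 12.5 and 13.6 RPKM in negative and 8.21, 14.4 and 12.2 RPKM in positive samples, and its interval, -0.58 to 0.15, included 0. The median log2 fold change of the 9 members in CFPAC-1 was -0.39, beside 0.05 over all genes tested.

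The changes in SW1990 and CFPAC-1 were then compared with each other. In limma's test of the difference between the lines, 0 of 9 members were called in either direction, against 9.16% of genes tested called higher and 17.8% called lower in SW1990 relative to CFPAC-1. No member had an unadjusted p under 0.05 in this test, and none was called by voom. The difference of *HLA-E*, SW1990 minus CFPAC-1, was 0.73 with an interval of -0.05 to 1.5 and an adjusted p of 0.152. Without positive SW1990 replicate 1 it was 1.00 with an adjusted p of 0.0339. The difference of *TAP1* was 0.28 with an interval of -0.17 to 0.73, and without positive CFPAC-1 replicate 3 it was 0.47 with an adjusted p of 0.0208. For *B2M* it was 0.45 with an interval of -0.23 to 1.13, and for *TAP2* -0.24 with an interval of -0.54 to 0.06. The calls of *HLA-E* and *B2M* in CFPAC-1 and not in SW1990 are therefore not shown to differ between the lines. The median log2 difference over all genes tested was -0.15 and became 0.0008 when samples were centred on their medians.

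Between samples of 1 group most members varied together. With the group means removed, Pearson's r over the 12 samples was 1.00 for *HLA-B* with *HLA-C*, 0.98 for *HLA-B* with *B2M* and 0.97 for *HLA-F* with *B2M*. These values describe pairs of genes measured in the same libraries and carry no test. *TAP2* stood apart from the heavy chains, with r of -0.82 with *HLA-E*, -0.37 with *HLA-B* and -0.06 with its partner *TAP1*. *PSMB8* and *PSMB9* had an r of 0.77 with each other and of 0.61 and 0.51 with *HLA-B*.

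Positive replicate 1 gave the lowest level of all 4 heavy chains and of *B2M* in both lines. Relative to the mean of its line, *HLA-B* was at -0.74 on the log2 scale in that sample of SW1990 and at -0.90 in that of CFPAC-1, and *HLA-E* was at -0.83 and -1.10. *TAP2* was highest in the same samples, at 0.35 and 0.38 above the line mean. The heat map of values relative to each line shows this contrast as opposite colours in the *TAP2* row.

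**Figure D3:**
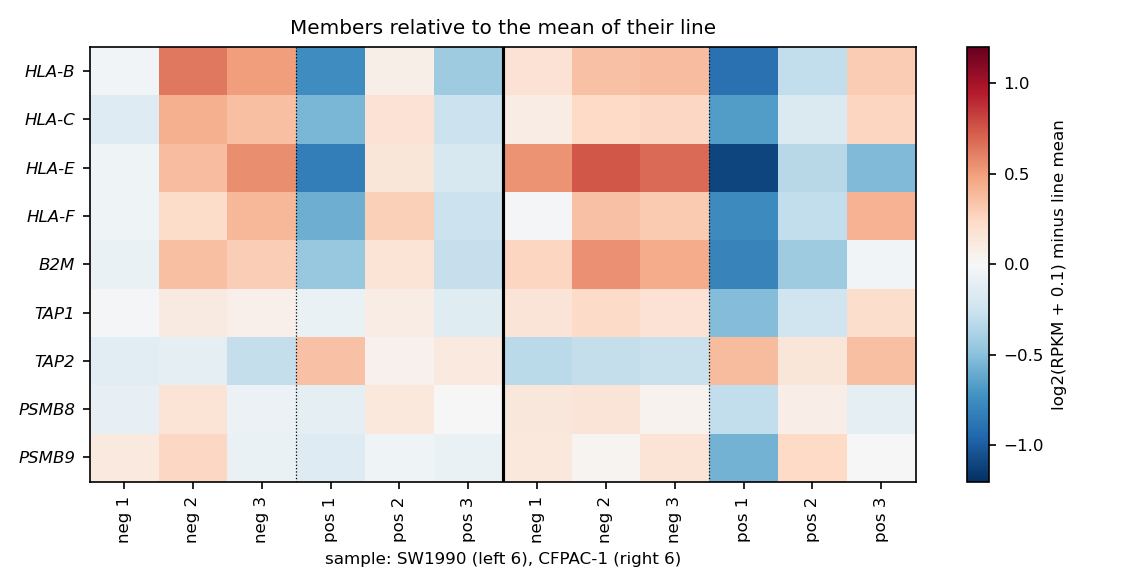
Log2(RPKM + 0.1) of each gene minus its mean over the 6 samples of the same line, with SW1990 on the left and CFPAC-1 on the right and red above, blue below the line mean. Positive replicate 1 is darkest blue for *HLA-E* in each line, at -0.83 and -1.10, and *TAP2* is red in all 6 positive samples.

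With the line means removed, the correlation of each member with the mean of the other members over the 12 samples was 0.96 for *HLA-C*, 0.95 for *HLA-B* and *B2M*, 0.92 for *HLA-F*, 0.88 for *TAP1* and 0.82 for *HLA-E*. It was 0.70 for *PSMB8* and 0.66 for *PSMB9*, and -0.80 for *TAP2*. Among 13173 other genes with a mean of at least 1 RPKM, the 5 whose pattern was most like the mean of the members were *XBP1*, *TMEM219*, *APLP2*, *S1PR2* and *RTP4*, with Pearson's r of 0.96, 0.96, 0.96, 0.95 and 0.95 over the same 12 samples. The log2 fold changes of *XBP1*, a transcription factor of the unfolded protein response, were -0.22 in SW1990 and -0.41 in CFPAC-1.

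The genes that work beside the members in peptide loading and trimming gave 0 calls of 7 by limma in SW1990, where 11.3% of all genes tested were called higher and 16.9% lower. In CFPAC-1, 2 of 7 rose and 1 fell, near the shares of all genes tested, 22.3% and 14.2%. *TAPBP*, or tapasin, which bridges the transporter and the heavy chain, fell from 220 ± 17.5 to 151 ± 23.4 RPKM, with a log2 fold change of -0.55 and an adjusted p of 0.0230. The chaperones *CALR* and *CANX* rose by 0.64 and 0.39 on the log2 scale, with adjusted p of 0.0009 and 0.0057. The differences of *CALR* and *CANX* between the lines were called as well, at -0.77 and -0.49. *ERAP1* and *ERAP2*, the peptidases that trim peptides in the endoplasmic reticulum, had log2 fold changes of -0.19 and -0.31 in SW1990 and of -0.21 and -0.12 in CFPAC-1, none of them called.

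Among 6 further proteasome genes none was called in SW1990, against 11.3% higher and 16.9% lower of all genes tested. In CFPAC-1 3 of 6 rose and 0 fell, against 22.3% and 14.2%. These 3 were *PSMB5*, *PSMB6* and *PSMB7*, the constitutive catalytic subunits that *PSMB8*, *PSMB9* and *PSMB10* replace in the immunoproteasome. *PSMB6* had 10.6, 9.30 and 8.56 RPKM in the negative and 21.4, 21.3 and 20.4 RPKM in the positive CFPAC-1 samples. Its positive samples were all more than every negative one, with a log2 fold change of 1.15 and an adjusted p of 0.0002. *PSMB5* rose by 0.61 and *PSMB7* by 0.65 on the log2 scale, with adjusted p of 0.0009 and 0.0014, and the positive samples of each were above the negative ones. The changes of all 3 differed between the lines, by -0.45 for *PSMB5*, -1.11 for *PSMB6* and -0.64 for *PSMB7*. *PSMB10* had log2 fold changes of -0.03 in SW1990 and -0.31 in CFPAC-1, neither of them called.

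The ratio of each immunoproteasome subunit to the subunit it replaces was therefore taken within each sample. In CFPAC-1 the ratio of *PSMB8* to *PSMB5* was 0.555, 0.554 and 0.541 in negative and 0.277, 0.380 and 0.282 in positive samples. The ratio of *PSMB9* to *PSMB6* was 1.26, 1.34 and 1.59 in negative and 0.383, 0.676 and 0.596 in positive samples. For *PSMB10* to *PSMB7* it was 0.326 ± 0.0691 in negative and 0.175 ± 0.0680 in positive samples. All 3 ratios were lower in every positive than in every negative CFPAC-1 sample, by -0.83, -1.36 and -0.96 on the log2 scale. A 2-sided exact permutation test gave p = 0.1 for each, the smallest value that groups of 3 allow. These ratios share the called changes of *PSMB5*, *PSMB6* and *PSMB7* and are not independent of them.

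In SW1990 the ratios overlapped between the groups. *PSMB8* to *PSMB5* was 1.23 ± 0.0535 in negative and 1.12 ± 0.171 in positive cells, with an exact permutation p of 0.3. *PSMB9* to *PSMB6* was 1.05 ± 0.0821 and 0.914 ± 0.190, with an exact permutation p of 0.3, and *PSMB10* to *PSMB7* was 0.244 ± 0.0463 and 0.238 ± 0.0464, with an exact permutation p of 1. Between the lines, the *PSMB8* to *PSMB5* ratio was higher in every SW1990 than in every CFPAC-1 sample of the same sort, by 1.16 on the log2 scale in negative and 1.84 in positive cells. The other ratios did not share this. *PSMB9* to *PSMB6* was lower in every negative SW1990 than negative CFPAC-1 sample, at -0.40, and higher in every positive one, at 0.74. *PSMB10* to *PSMB7* overlapped between the lines in each sort, at -0.41 in negative and 0.51 in positive cells.

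**Figure D4:**
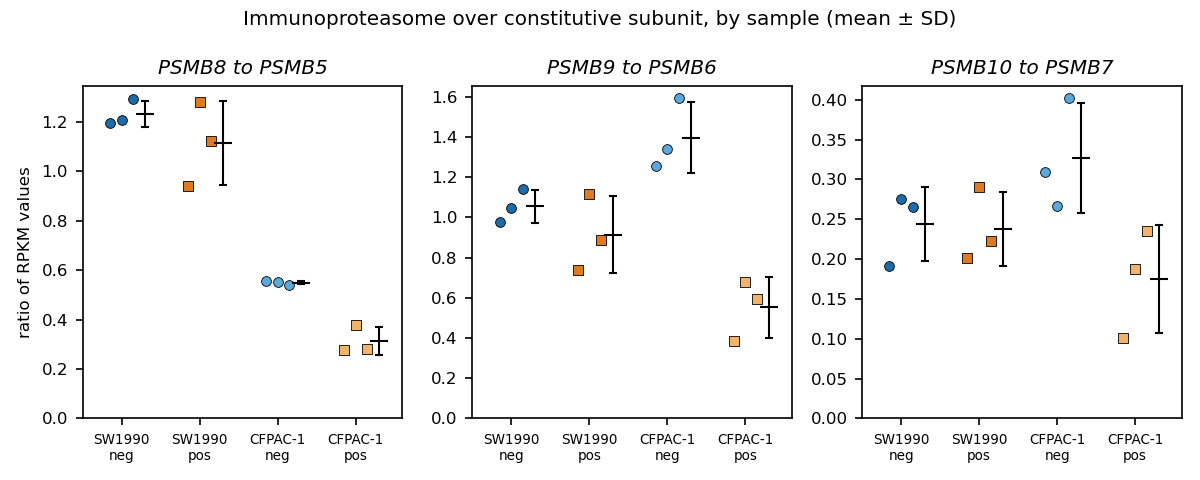
Ratio of the RPKM of an immunoproteasome subunit to that of the constitutive subunit it replaces (linear axes that start at 0) in each of the 12 samples, with the mean and SD of each group of 3. The positive CFPAC-1 samples lie below the negative ones in all 3 panels, while the SW1990 groups overlap in each.

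Of 15 regulators of the class I genes, 0 were called higher and 3 lower by limma in SW1990, and 3 higher and 2 lower in CFPAC-1. These counts are near the shares over all genes tested in CFPAC-1, 22.3% higher and 14.2% lower, and in SW1990 for the lower direction, 16.9%, against 11.3% higher there. The *NLRC5* means were 7.67 ± 1.14 RPKM for negative SW1990 samples and 6.71 ± 0.821 RPKM for the positive ones, and its log2 fold change had a SW1990 interval of -0.53 to 0.16 and a CFPAC-1 interval of -0.25 to 0.44. *IRF1* had log2 fold changes of -0.14 and -0.22, with adjusted p of 0.352 and 0.121. The lowest called change in SW1990 was that of *IFNGR1*, a chain of the interferon gamma receptor, at -1.13, and the lowest in CFPAC-1 was that of *IFNGR2*, the other chain, at -0.77. The highest in CFPAC-1 was that of *RFX5*, a factor that binds class I and class II promoters, at 0.49.

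Of 24 interferon-stimulated genes, 0 were called higher and 4 lower in SW1990, and 1 higher and 7 lower in CFPAC-1. The shares over all genes tested were 11.3% higher and 16.9% lower in SW1990, the latter near the count of the list, and 22.3% higher and 14.2% lower in CFPAC-1. *GBP2*, an interferon-induced GTPase, had the lowest log2 fold change among those called in SW1990, at -2.94, and fell by 1.68 on the log2 scale in CFPAC-1. *IFITM1*, a membrane protein that restricts viral entry, had the lowest in CFPAC-1, at -2.00, and *OAS3* was the 1 gene called higher there, at 1.02. The median log2 fold change of the list was -0.43 in SW1990 and -0.38 in CFPAC-1, beside -0.04 and 0.05 over all genes tested. In SW1990, 17 of the 24 were below the negative samples in every positive sample and 2 were above, against 25.4% and 17.9% of all genes tested. In CFPAC-1, 5 were below and 2 above, against 20.4% and 28.1%, so the share below was near that of all genes there.

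The second comparison was between the lines within each sort. Among negative cells, 6 of 9 members were higher in SW1990 than in CFPAC-1 and 0 were called lower by limma, against 40.7% and 28.2% of genes tested. The 6 were *HLA-B*, *HLA-C*, *HLA-F*, *TAP1*, *TAP2* and *PSMB8*. The largest log2 differences were those of *TAP1*, at 2.52, *TAP2*, at 2.47, *HLA-B*, at 2.32, and *HLA-C*, at 2.10, and *PSMB8* and *HLA-F* differed by 1.56 and 0.79. *TAP1* averaged 270.1 ± 12.5 RPKM in negative SW1990 and 47.1 ± 1.30 RPKM in negative CFPAC-1 cells. The median over all genes tested was 0.19 in this comparison and 0.01 after centring on the sample median, and the member values above are read relative to it.

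*B2M*, *HLA-E* and *PSMB9* were not called in this comparison. All negative SW1990 samples of *B2M* were lower than those of CFPAC-1, with a log2 difference of -0.50, an interval of -0.98 to -0.01 and an adjusted p of 0.0633. *B2M* was the 1 member with an unadjusted p under 0.05 in the lower direction, and it was called lower by voom, at an adjusted p of 0.0258. *HLA-E* overlapped, with a log2 difference of -0.13 and an interval of -0.67 to 0.42. *PSMB9* was higher in every SW1990 than in every CFPAC-1 sample, with a log2 difference of 0.35, an interval of -0.02 to 0.71 and an adjusted p of 0.0812. It was called higher when only these groups were fitted (adjusted p = 0.0156) and without positive CFPAC-1 replicate 1 (adjusted p = 0.0116) or replicate 2 (adjusted p = 0.0406). In all, 7 members lay above and 1 below without overlap, beside 43.8% and 31.4% of genes tested. The *HLA-F* call was lost without negative SW1990 replicate 2 (0.77, adjusted p = 0.0544) or replicate 3 (0.68, adjusted p = 0.0792), without negative CFPAC-1 replicate 1 (0.68, adjusted p = 0.0802) and after centring on the sample median (0.60, adjusted p = 0.0756).

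Among positive cells the same 6 members were called higher in SW1990 and 0 were called lower, against 32.9% and 29.3% of genes tested. No member was called lower by voom or had an unadjusted p under 0.05 in that direction. The log2 differences were 2.80 for *TAP1*, 2.23 for *TAP2*, 2.18 for *HLA-B*, 2.07 for *HLA-C*, 1.79 for *PSMB8* and 0.85 for *HLA-F*. The first 5 of these did not overlap between the lines, beside 33.9% of genes tested that lay above and 30.0% that lay below. *HLA-F* overlapped, since positive CFPAC-1 replicate 3, at 38.7 RPKM, lay above positive SW1990 replicate 1, at 33.9 RPKM. Its call was lost without positive SW1990 replicate 2 (0.61, adjusted p = 0.0824), without positive CFPAC-1 replicate 1 (0.57, adjusted p = 0.0813) or replicate 2 (0.81, adjusted p = 0.0515) and when only these groups were fitted (adjusted p = 0.0687). *HLA-E* had a log2 difference of 0.60 with an adjusted p of 0.0540. It was called higher with voom (adjusted p = 0.0317), quantile normalization (adjusted p = 0.0318) and a filter at a mean of 1 RPKM (adjusted p = 0.0493). With replicate number as a covariate shared by both lines, whose samples are not known to be paired, limma's adjusted p was 0.0040. Left-out libraries that gave the call were negative SW1990 replicate 1 (0.60, adjusted p = 0.0493), positive SW1990 replicate 1 (0.87, adjusted p = 0.0070) and positive CFPAC-1 replicate 2 (0.76, adjusted p = 0.0332). *B2M* had a log2 difference of -0.04 with an interval of -0.52 to 0.44. *PSMB9* had a log2 difference of 0.38 with an adjusted p of 0.0679, and was called higher without positive CFPAC-1 replicate 2 (0.55, adjusted p = 0.0099).

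The order of the group means was thus the same for *HLA-B*, *HLA-C*, *HLA-F*, *TAP1* and *PSMB9*, from negative SW1990 through positive SW1990 and negative CFPAC-1 to positive CFPAC-1 cells. For these 5 genes the negative and positive samples of a line overlapped, and for *HLA-F* those of positive SW1990 and negative CFPAC-1 cells overlapped as well. *TAP2* was ordered from positive SW1990 through negative SW1990 and positive CFPAC-1 to negative CFPAC-1 cells, with no overlap between neighbours.

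By the thresholds of the study, over 2-fold with an unadjusted p under 0.01, limma called 0 members higher and 0 lower in SW1990, against 4.59% and 7.48% of genes tested, and 0 higher and 1 lower, *HLA-E*, in CFPAC-1, against 5.65% and 4.13%. The difference between the lines gave 0 members in either direction, against 5.33% and 8.84%. By the same thresholds 5 members, *HLA-B*, *HLA-C*, *TAP1*, *TAP2* and *PSMB8*, were higher in SW1990 than in CFPAC-1 in each sort, against 21.9% of genes tested in negative and 14.8% in positive cells, and 0 were lower, against 15% and 13.7%.

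The regulators and interferon-stimulated genes were measured in the same comparison. *NLRC5* was higher in SW1990 by 2.01 on the log2 scale in negative and 1.73 in positive cells, both called at an adjusted p of at most 1.71e-06. *IRF1* was lower in SW1990, by -0.40 and -0.32. Of the 24 interferon-stimulated genes, 22 were called higher and 1 lower in negative SW1990 cells, and 21 higher and 2 lower in positive SW1990 cells, with *GBP2* lower in both. Over all genes tested 40.7% were called higher and 28.2% lower in negative cells, and 32.9% and 29.3% in positive cells. *TAPBP* was lower in SW1990, by -0.85 in negative and -0.57 in positive cells. The part of the interferon-stimulated genes, or of what raises them, in the member levels of the lines was not tested.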

How the data were processed

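RNA-seq of 12 samples, 3 for each sort of SW1990 and of CFPAC-1, was analysed from the deposited table of RPKM values. According to the study's methods, alignment was to hg19/GRCh37, and the authors obtained the RPKM values with QuasR by scaling for library size and gene length. The annotation and the strand setting are not given in the sources used here, and the labels name a strand-specific kit whereas the methods name another. The submitters' processing notes name bcl2fastq, hg19 and GRCh37.

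With limma 3.58.1 in R 4.3.3, 4 group means were fitted to log2(RPKM + 0.1), with an intensity trend in eBayes, over the 16236 of 23346 genes with a mean of at least 0.1 RPKM. Fold changes are on this scale, which understates those of low genes. Tests were 2-sided, p-values were Benjamini-Hochberg adjusted over all genes tested, and genes were called at an adjusted p under 0.05. TCC, which the study names, takes counts and was not used here. Its thresholds, over 2-fold and p under 0.01, were an alternative.

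Library totals of 9969697 to 26159330 reads were recovered from single-exon genes of annotated length. The total of a library was the value most often implied when such a gene held a single read. Gene lengths were then searched for the smallest that gave whole reads in every sample. All 19654 genes above 0 gave whole reads to within 0.01 of a read, which the search makes easier for genes above 0 in few samples. The recovered reads served for depths and for voom. Intervals cover the spread between samples. The scripts were tested on simulated data. Ratios of subunits were compared with exact permutation tests.

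The members and the gene lists were chosen with earlier results of these data known. Named were all 9 members, 7 partner and regulator genes whatever their values, the called genes with the highest and lowest change in each list, and the 5 genes most like the members. Some genes of the lists are not reported here. Other genes that are named fell outside this rule and were chosen after their values were seen. Sequences are RefSeq windows of GRCh38.p14, matched by symbol for 8 members, and coordinates are GENCODE 44 mapped to GRCh37. Figures were drawn with matplotlib 3.10.9.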

Additional observations from a re-analysis of the deposited data

Results flagged for a closer look

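No member of the class I set was called in the test of the difference between the lines, and groups of 3 samples are too small for a test of single outlying samples. Among the genes of the accompanying lists, 16 differed between SW1990 and CFPAC-1 in that change, by limma's test of the difference at an adjusted p under 0.05. The tested genes were 7 of peptide loading, 6 of the proteasome, 15 regulators, 14 class I-like, 14 class II and 24 interferon-stimulated genes. Over all genes tested, 9.16% were called higher and 17.8% lower in this test, so the 16 are not a larger share than that. Each difference is the log2 fold change in SW1990 minus that in CFPAC-1.

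Of the genes of peptide loading and the proteasome, *CALR* had a difference of -0.77, *CANX* of -0.49, *PSMB5* of -0.45, *PSMB6* of -1.11 and *PSMB7* of -0.64. All 5 rose in positive CFPAC-1 cells and were not called in SW1990.

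Of the regulators, *IFNGR1* had a difference of -0.84, *JAK1* of -0.41, *NFYB* of -0.73 and *NFYC* of -0.43. *IFNGR1* and *JAK1* fell in SW1990, and *NFYB* and *NFYC*, subunits of the factor that binds CCAAT boxes, rose in CFPAC-1.

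Of the interferon-stimulated genes, *BST2* had a difference of -1.17, *GBP1* of -1.23, *OAS3* of -1.22, *IFIT2* of 0.75 and *IFITM1* of 1.37. *BST2* and *GBP1* fell in SW1990, *IFIT2* and *IFITM1* fell in CFPAC-1, and *OAS3* rose in CFPAC-1.

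The stress ligand gene *ULBP2* had a difference of -0.87 and rose in CFPAC-1, and the class II gene *HLA-DOA* had a difference of -2.11 and fell in SW1990.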

How the results depend on the processing

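Of 1026 alternative values of 45 member results, 943 kept their direction and their side of the threshold, 17 lost the call, 40 gained one and 26 changed direction, each of these last in a result that was not called. The *TAP2* and *HLA-E* calls in CFPAC-1 were kept in all alternatives except, for *TAP2*, the threshold of over 2-fold and unadjusted p under 0.01. The cause of the changes below was not tested.

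The deviations of same-numbered samples from their group means correlated at 0.18, 0.02 and 0.12 in SW1990 and at -0.02, 0.0013 and -0.06 in CFPAC-1. Those of differently numbered samples ranged from -0.25 to 0.16 in SW1990 and from -0.03 to 0.04 in CFPAC-1. With 3 samples a group these values cannot tell whether same-numbered samples came from 1 sort. The main fit left replicate numbers out. With a replicate block *HLA-B* and *HLA-E* were called lower in SW1990, and *HLA-B* besides *HLA-E* and *B2M* in CFPAC-1. In that fit, which blocked on replicate number within each line, the change of *HLA-E* differed between the lines, at 0.73. Levels of the lines were compared in another fit, with replicate number as a covariate shared by both lines. Same-numbered samples of different lines are not known to be paired, so that covariate may be arbitrary. There *B2M* was lower in negative SW1990 than CFPAC-1 cells. *HLA-E* was added to the 6 members higher in positive SW1990 cells, at 0.60. The shares of all genes called with the block or with samples left out are not given here, so gains of the members are not set against gains of all genes.

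Members called higher in SW1990 went from 1 to 0 with only the 2 groups compared and with over 2-fold and p under 0.01, and those lower from 0 to 2 with quantile normalization and 1 with voom. In CFPAC-1 the 1 higher became 0 with over 2-fold and p under 0.01, and the 2 lower became 4 with quantile normalization, 1 with only 2 groups and 1 with over 2-fold. Lower members in negative SW1990 against CFPAC-1 cells went from 0 to 1 with centring, quantile normalization and voom. With over 2-fold and p under 0.01, calls over all genes fell from 1831 to 746 higher and from 2750 to 1215 lower in SW1990, from 3622 to 917 and from 2307 to 671 in CFPAC-1, from 1487 to 866 and from 2887 to 1435 in the difference between lines, from 6610 to 3560 and from 4571 to 2433 between negative and from 5349 to 2402 and from 4764 to 2225 between positive cells. The share of higher calls in the difference between lines went from 34.0% to 50% with centring.

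With quantile normalization *PSMB8* in SW1990 was -0.0068, *HLA-E* between negative cells 0.12, the log2 ratio of *PSMB8* to *PSMB5* between negative cells 1.07 and that of *PSMB10* to *PSMB7* in SW1990 0.049. With centring, the difference between lines was 0.0057 for *HLA-B* and 0.12 for *HLA-C*.

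With each sample left out in turn, members called higher ranged from 0 to 1 in SW1990 and from 0 to 1 in the difference between lines, and members called lower from 0 to 2 in SW1990, from 2 to 5 in CFPAC-1 and from 0 to 1 between negative cells. Log2 values ranged from -0.059 to 0.088 for *PSMB8* in SW1990 and from -0.39 to 0.013 for *PSMB9* in CFPAC-1. For the difference between lines they ranged from -0.44 to 0.16 for *HLA-B*, from -0.27 to 0.20 for *HLA-C*, from -0.22 to 0.37 for *HLA-F* and from -0.20 to 0.20 for *PSMB9*. Between the lines they ranged from -0.26 to 0.044 for *HLA-E* in negative and from -0.23 to 0.15 for *B2M* in positive cells, and from -0.20 to 0.077 for the ratio of *PSMB10* to *PSMB7* in SW1990.

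With 3 samples a group, the intervals of *HLA-C* and *HLA-F* reach from -0.91 or lower to above 0 in both lines, so a fall of that size could not be told from none. Reads shared between class I paralogs and the alleles of each line limit the comparison between lines.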

Other observations

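The class I-like and stress ligand genes, 14 of 16 with enough expression to be tested, gave calls in both directions. *MICB*, a ligand of the NKG2D receptor of natural killer cells, rose from 14.8 ± 0.706 to 28.1 ± 2.97 RPKM in positive SW1990 and from 4.82 ± 0.931 to 11.6 ± 3.12 RPKM in positive CFPAC-1 cells (SD, n = 3). Its log2 fold changes were 0.92 and 1.23, with limma's adjusted p of 0.0033 and 0.0006. Its neighbour in sequence, *MICA*, had log2 fold changes of -0.10 and -0.05, neither of them called. *FCGRT*, the class I-like receptor that recycles antibodies, and *MR1*, which presents vitamin metabolites, fell in both lines, by 1.33 and 0.76 on the log2 scale in SW1990 and by 0.97 and 0.65 in CFPAC-1. Both proteins pair with *B2M*, and a link of their changes to that of *B2M* was not tested. *HFE*, another class I-like gene of the list, had log2 fold changes of -0.27 in SW1990 and -0.15 in CFPAC-1, neither of them called. *RAET1L* had the highest called change in SW1990, at 2.54, from a level of 0.0827 ± 0.0736 RPKM, and *HLA-H*, a pseudogene, rose there by 0.51. In CFPAC-1 *HLA-J*, also a pseudogene, fell by 0.96. Reads of the pseudogenes may be shared with the class I genes.

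Of 14 class II presentation genes, 1 was called higher and 3 lower in SW1990, and 1 higher and 1 lower in CFPAC-1. Over all genes tested 11.3% were called higher and 16.9% lower in SW1990, and 22.3% and 14.2% in CFPAC-1. *HLA-DOB*, a chain of the modulator of class II peptide loading, rose in both lines. Its SW1990 means were 1.62 ± 0.0784 RPKM without and 3.43 ± 0.400 RPKM with the antigen, its CFPAC-1 means 3.78 ± 0.308 and 7.4 ± 1.69 RPKM, and the log2 fold changes were 1.03 and 0.93. *HLA-DOA*, its partner chain, was called lower in SW1990, at -2.90, and not in CFPAC-1, at -0.79 with an adjusted p of 0.0974. *HLA-DOB* lies beside *TAP2* on chromosome 6. *CD74*, the invariant chain, was the gene called lower in CFPAC-1, at -0.75. *HLA-DRA*, a class II chain, stood at 284 ± 76.2 RPKM in negative SW1990 and 138 ± 9.17 RPKM in negative CFPAC-1 cells.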
